A study of Mus musculus with 6 samples.

Results

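The genes described here are the components of the sestrin, mTOR and AMPK network in mouse liver: the 3 sestrins, the GATOR1 and GATOR2 complexes, the Rag GTPases and Ragulator, the folliculin complex, mTORC1 and mTORC2, the TSC complex with Rheb, the AMPK subunits with the upstream kinase LKB1, and the direct effectors of mTORC1 with the stress inhibitor Ddit4. They were chosen by gene symbol from a list of 47 names, and all 47 were among the 24421 symbols of the deposited count table. Of these, 46 passed the filter on low counts and were tested with 12945 genes in all. The exception was Rragb, with between 0 and 8 counts per library.

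RNA was sequenced from liver of male C57BL/6 mice aged 4 months, in 3 samples from Sesn3 knockouts (KO) and 3 from wild types (WT). Both groups had eaten the same diet for 4 weeks, with 20% of its energy from protein, 40% from fat and 40% from carbohydrate, plus cholesterol (1.25%) and the bile salt cholate as its sodium salt (0.5%). No group on a standard diet was analysed here, so every difference below is between genotypes on this diet. The sources used here do not give how the allele was made, which cells it affects or whether the mice were littermates. Since the labels tell no more than that the samples are separate, every p-value reflects the spread among these 6 samples, which may be technical. Libraries held between 18882220 and 24098512 counts, and no pair within a group agreed within sampling noise. The summed level of 6 hepatocyte markers was between 89325 and 108965 CPM, which is the count scaled to a common library size in KO and between 86538 and 138605 CPM in WT, so markers of the labelled tissue were abundant in every library.

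mTORC1 is a kinase complex on the lysosome surface that promotes protein and lipid synthesis when amino acids and growth factors are plentiful. Amino acids act through the Rag GTPases, which GATOR1 switches off. GATOR2 opposes GATOR1, and sestrins bind GATOR2 and can hold it back. Growth factors and energy act through the TSC complex, which switches off Rheb, and AMPK, the energy-sensing kinase, restrains mTORC1 through TSC2 and raptor. Sestrins have also been tied to AMPK and mTORC2 activity in mouse liver. These proteins are regulated largely by binding and phosphorylation, which RNA levels do not measure.

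The transcript of the targeted gene was low in every library labelled KO, and Sesn2 was the other member that passed the test. Sesn3, which encodes sestrin 3 (GENCODE, mm10, chr9:14275067-14333101, plus strand), had 18, 18 and 16 counts in KO replicates 1 to 3 and 172, 200 and 195 counts in WT replicates 1 to 3. In CPM scaled by TMM factors these were 0.761, 0.695 and 0.689 in KO and 9.0, 11.6 and 10.4 in WT. The groups lay far apart, with all KO libraries below 1 CPM. Sesn3 fell by 3.84 on the log2 scale in KO (SE 0.22, 95% interval -4.36 to -3.32, edgeR adjusted p = 0.00183). Counts were summed over the whole gene, so the reads that remained were not placed on exons.

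Sesn2 encodes the stress-induced sestrin that senses leucine (chr4:132492032-132510501, minus strand). It stood at 20.3, 22 and 22.5 CPM in KO replicates 1 to 3 and at 13.6, 7.96 and 9.99 CPM in WT replicates 1 to 3. The KO libraries lay close together, above all 3 WT libraries, and WT replicate 1 was the highest of its group. Sesn2 rose 2.06-fold in KO, from 10.5 ± 2.83 to 21.6 ± 1.15 CPM (SD, n = 3 each), a log2 fold change of 1.04 (SE 0.20, 95% interval 0.57 to 1.51, edgeR adjusted p = 0.0276). The call was lost (edgeR adjusted p of up to 0.111) when any KO replicate or WT replicate 3 was left out, while its log2 fold change stayed between 0.88 and 1.27 without any 1 library.

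Sesn1 encodes the sestrin known as a p53 and FOXO target (chr10:41809935-41908424, plus strand). It stood at 15.6, 17.2 and 17.4 CPM in KO and at 17.0, 15.1 and 12 CPM in WT. The groups overlapped, and the log2 difference of 0.19 (SE 0.16, 95% interval -0.18 to 0.56) did not pass the test (edgeR adjusted p = 0.495).

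**Figure D1:**
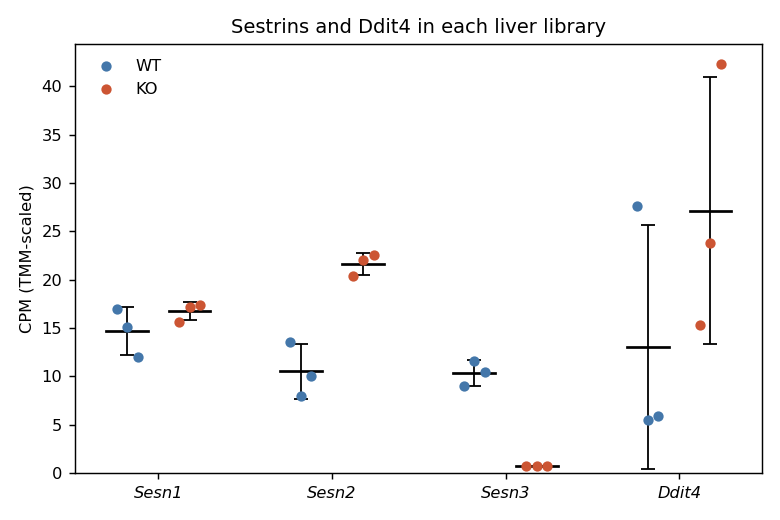
Level in CPM scaled by TMM factors (vertical axis, linear) of Sesn1, Sesn2, Sesn3 and Ddit4 in each liver library; points are libraries, bars are group means and whiskers 1 SD (n = 3). Sesn2 lies between 20.3 and 22.5 CPM in KO, above every WT library, Sesn3 lies below 1 CPM in KO, and Ddit4 spreads from 15.3 to 42.3 CPM in KO and from 5.46 to 27.6 CPM in WT.

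The sum of the 3 sestrin transcripts was 36.7, 39.9 and 40.6 CPM in KO and 39.5, 34.6 and 32.4 CPM in WT. These groups overlapped, at 39.1 ± 2.05 against 35.5 ± 3.62 CPM (SD, n = 3 each; two-sided exact permutation p = 0.2). Divided by length, so that genes can be set beside each other, Sesn2 had the highest level of the 3 sestrins in KO (6.22 CPM per kb), above Sesn1 (4.2 CPM per kb), while in WT Sesn1 led with 3.69 CPM per kb, Sesn2 had 3.02 CPM per kb and Sesn3 had 0.678 CPM per kb. Sesn3 was thus the least abundant sestrin per length in WT livers on this diet. Its exons, summed over all annotated transcripts, span 15269 bases, against 3475 for Sesn2. Not divided by length, the WT means were 10.3 CPM for Sesn3, 10.5 CPM for Sesn2 and 14.7 CPM for Sesn1. The wide gap between Sesn3 and Sesn2 per kb thus comes from the lengths used, and the sum per kb weights Sesn3 down in the same way. Per kb, the sum of the 3 sestrins was 10.5 ± 0.564 in KO and 7.39 ± 1.19 CPM per kb in WT without overlap (SD, n = 3 each; two-sided exact permutation p = 0.1, the smallest that 3 against 3 can give).

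The stretches around the transcript starts of the sestrins are shown because Sesn2 rose, Sesn1 did not pass the test and Sesn3 was the targeted gene, and because several known regulators of these genes are described below. They run from 250 bases before to 50 bases after the annotated start (RefSeq, GRCm38.p6), printed on the gene's strand, with matches to the searched motifs in capitals.
Sesn2, chr4:132510407-132510706, minus strand: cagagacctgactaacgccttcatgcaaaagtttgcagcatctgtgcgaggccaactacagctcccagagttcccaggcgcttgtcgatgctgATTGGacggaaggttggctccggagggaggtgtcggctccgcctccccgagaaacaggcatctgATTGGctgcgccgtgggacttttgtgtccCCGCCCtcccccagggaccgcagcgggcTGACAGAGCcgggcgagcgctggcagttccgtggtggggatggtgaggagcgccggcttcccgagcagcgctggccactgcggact
Sesn3, chr9:14276051-14276350, plus strand: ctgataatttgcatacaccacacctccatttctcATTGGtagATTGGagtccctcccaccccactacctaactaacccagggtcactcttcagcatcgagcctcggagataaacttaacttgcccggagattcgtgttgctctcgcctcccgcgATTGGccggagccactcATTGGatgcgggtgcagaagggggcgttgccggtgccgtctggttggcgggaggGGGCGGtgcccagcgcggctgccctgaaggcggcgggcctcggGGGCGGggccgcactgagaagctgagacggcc
Sesn1, chr10:41810324-41810623, plus strand: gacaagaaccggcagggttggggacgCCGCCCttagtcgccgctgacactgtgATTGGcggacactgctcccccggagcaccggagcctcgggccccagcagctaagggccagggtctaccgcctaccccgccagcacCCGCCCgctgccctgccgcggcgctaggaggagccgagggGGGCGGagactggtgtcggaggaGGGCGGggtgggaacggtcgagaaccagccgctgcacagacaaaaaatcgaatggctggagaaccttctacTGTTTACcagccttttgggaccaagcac
Sesn1, chr10:41887189-41887488, plus strand: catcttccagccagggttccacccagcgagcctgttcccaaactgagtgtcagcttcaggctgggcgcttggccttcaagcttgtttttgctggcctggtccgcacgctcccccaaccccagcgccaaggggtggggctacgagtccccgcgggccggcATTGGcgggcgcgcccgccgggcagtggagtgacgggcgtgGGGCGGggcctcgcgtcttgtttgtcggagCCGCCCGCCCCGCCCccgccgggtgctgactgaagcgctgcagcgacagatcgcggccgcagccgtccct
The motifs were searched on both strands: TGATGNAA (the site of ATF4 with a C/EBP partner), CACGTG (E-box), GTAAACA (FOXO), TGACNNNGC (core of the antioxidant response element, bound by NRF2), CCAAT and GGGCGG (GC box). Overlapping or adjoining matches print as 1 run of capitals, as the GC boxes near the start in the second Sesn1 window do.

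The Sesn2 window held 1 TGACNNNGC match at position -36 from the start, which 12.4% of all 32851 windows also have, 2 CCAAT boxes and 1 GC box. The Sesn3 window held 4 CCAAT boxes and 2 GC boxes, and 1 of the Sesn1 windows held a FOXO match at position 22, a motif found in 3.65% of all windows. TGATGNAA lies in none of these windows, and in 3.97% of all. Of the 47 members, 41 matched the RefSeq table, with 46 windows. GC boxes were in 65.2% of the members' windows and 35.7% of all windows, E-boxes in 15.2% and 7.15% (Fnip1, Lamtor1, Lamtor4, Rheb, Rragb, Rragc and Tbc1d7), and CCAAT boxes in 43.5% and 37.4%. FOXO matches were in 8.7% of the members' windows and 3.65% of all. The remaining motifs had lower shares in the members' windows than in all windows, with TGACNNNGC in 8.7% against 12.4% and TGATGNAA in 2.17% against 3.97%. The comparison with all windows was not limited to genes tested in these livers, so the shares need not be particular to this network. A match is a run of letters and not a measured site.

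Across the network, few members passed the test. A gene was called where its edgeR adjusted p over all 12945 genes was under 0.05. Of the 46 tested, 1 was higher in KO (Sesn2), beside 3.36% of all genes tested, and 1 was lower (Sesn3, the targeted gene), beside 3.58% of all genes. DESeq2 called 3 members higher (Sesn2, Rragd and Eif4ebp1), beside 7.11% of all genes, and 4 lower (Sesn3, Nprl2, Depdc5 and Prkaa2), beside 8.2%. These counts stand near the shares over all genes, and the Sesn3 call is fixed by the knockout. In 6 members every KO library lay above every WT library, beside 16.9% of all genes, and in 8 every KO library lay below, beside 16.6%. Together these were 30.4% of the members and 33.5% of all genes. The count of all genes higher in KO moved from 435 to 48 without KO replicate 2 and to 504 without WT replicate 1. The count of members higher in KO moved from 1 to 0 without KO replicate 1, 2 or 3 or WT replicate 3, where Sesn2 lost its call, and to 2 without WT replicate 1.

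Most members differed little between the groups. The median log2 fold change was -0.08 over the 46 members and 0.0027 over all genes tested, and the median absolute log2 fold change was 0.19 against 0.28. The absolute log2 fold change was under 0.5 in 36 members (78.3%, against 71.5% of all genes). The median SE was 0.16 over the members and 0.20 over all genes tested, and a smaller SE gives a narrower interval. The 95% interval lay within a 2-fold change in either direction for 40 members (87%, against 61.7% of all genes). The 6 whose interval reached further were Sesn2, Sesn3, Rragd, Tsc1, Prkab2 and Ddit4. With scaling by library size only, the log2 fold changes of all genes shifted upward by 0.21 at the median, and 16 members with small negative values turned positive. Under 1 or more of all alternatives 19 of the 46 members changed sign, none of them called, and 27 kept it throughout.

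**Figure D2:**
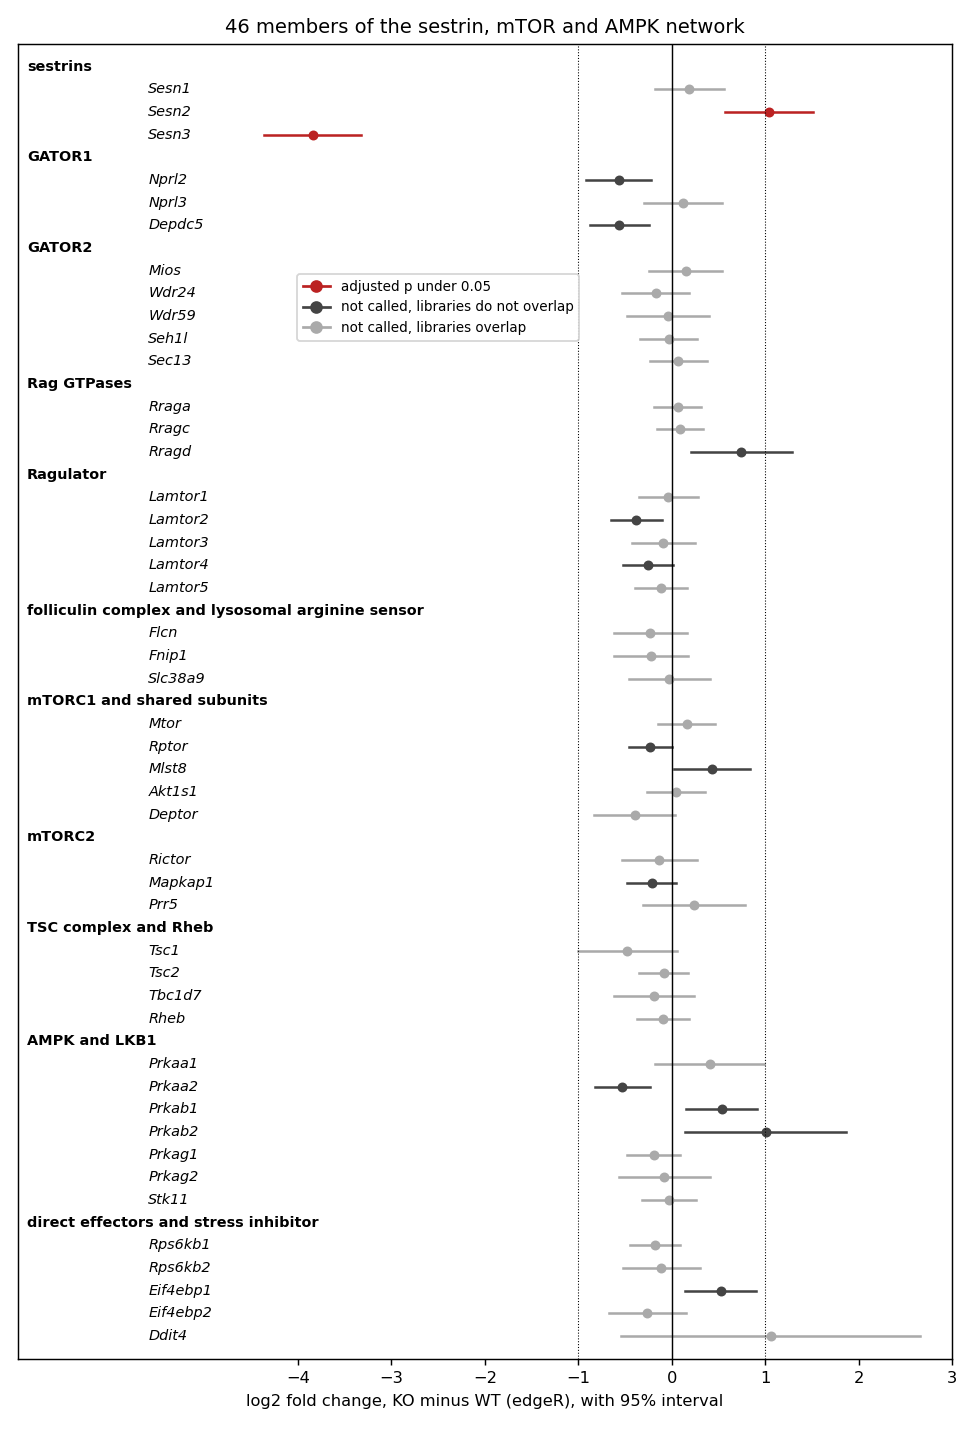
Log2 fold change of KO against WT (horizontal axis) for each of the 46 tested members, grouped by role, with edgeR 95% intervals; dotted lines mark a 2-fold change. Red points are the 2 called members, Sesn2 and Sesn3, dark points members whose libraries do not overlap and grey points members whose libraries overlap. Most intervals lie between the dotted lines.

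GATOR1, the GTPase-activating complex that turns off the Rag A and B proteins, had lower values of Nprl2 and Depdc5 in KO, both short of the threshold. Nprl2 (chr9:107542226-107545706, plus strand) stood at 8.20, 9.69 and 10.6 CPM in KO and at 13.4, 15.1 and 13.8 CPM in WT. Depdc5, which holds the complex on the lysosome (chr5:32863701-32994236, plus strand), stood at 9.26, 8.99 and 9.91 CPM in KO and at 15, 13.3 and 13.2 CPM in WT. Neither gene overlapped between the groups. Their log2 fold changes were -0.57 for Nprl2 (SE 0.15, 95% interval -0.92 to -0.22, edgeR adjusted p = 0.063) and -0.56 for Depdc5 (SE 0.14, 95% interval -0.88 to -0.24, edgeR adjusted p = 0.0518). DESeq2 called both, with adjusted p = 0.0194 for Nprl2 and adjusted p = 0.0101 for Depdc5, the lowest over the alternatives, of which the highest were 0.184 and 0.183. Nprl3, the remaining subunit and the partner of Nprl2, overlapped between groups, with a log2 difference of 0.12 (95% interval -0.30 to 0.54, edgeR adjusted p = 0.71). The exons of Nprl3 overlap those of Mpg on the opposite strand over 1340 bases, and the strand setting is not stated, so their reads cannot be told apart there.

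GATOR2, the complex that sestrins bind, gave overlapping groups in all 5 subunits. Mios was at 10.9, 12.7 and 12.7 CPM in KO and 9.84, 13.0 and 9.88 CPM in WT, a log2 difference of 0.15 (edgeR adjusted p = 0.618). Wdr24, which carries the activity of the complex, was between 13.7 and 18.1 CPM in KO and between 16.2 and 19.8 CPM in WT. Its log2 difference of -0.17 (edgeR adjusted p = 0.521) was the furthest from 0 of the 5, and no subunit passed. Wdr59, Seh1l and Sec13, the last of which is shared with the COPII coat and the nuclear pore, had log2 differences of -0.04, -0.03 and 0.07, and the sign of Wdr24, Wdr59 and Seh1l turned with library-size scaling.

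The Rag GTPases form pairs of RagA or RagB with RagC or RagD and recruit mTORC1 to the lysosome. Rraga stood between 35.8 and 41.2 CPM in KO and between 34.1 and 38.0 CPM in WT, and Rragc between 58.5 and 67.7 CPM in KO and between 58.4 and 61.2 CPM in WT. Both overlapped, with log2 differences of 0.06 and 0.08. Rragb had 0, 8 and 6 counts in KO and 5, 1 and 2 counts in WT and was too low for the fit. RagA and RagB are close copies, and whether reads were split between their genes was not tested. Rragd (chr4:32983037-33022180, plus strand) stood at 4.86, 6.75 and 7.15 CPM in KO and at 3.40, 3.55 and 4.27 CPM in WT. All 3 KO libraries lay above all 3 WT libraries, with KO replicate 1 nearest to WT. The log2 fold change of 0.74 (SE 0.23, 95% interval 0.20 to 1.28) did not pass the test (edgeR adjusted p = 0.0965), while DESeq2 gave adjusted p = 0.0485, in a range over the alternatives that reached 0.272.

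Ragulator is the scaffold of 5 proteins that anchors the Rags to the lysosome. None of its genes passed, and all 5 had negative log2 fold changes, of which those of Lamtor1, Lamtor3 and Lamtor5 turned positive with library-size scaling. Lamtor2 was at 30.1, 35.5 and 35.8 CPM in KO and at 47.3, 43.6 and 41.0 CPM in WT, without overlap. Its log2 fold change was -0.38 (SE 0.12, 95% interval -0.65 to -0.10, edgeR adjusted p = 0.0955). Lamtor4 was at 36.5, 40.2 and 36.0 CPM in KO and at 44.7, 48.9 and 40.9 CPM in WT, with a gap of under 1 CPM between the groups, and its log2 fold change of -0.26 did not pass (edgeR adjusted p = 0.207). Lamtor1, Lamtor3 and Lamtor5 overlapped between groups, with log2 differences of -0.04, -0.09 and -0.12. Flcn and Fnip1, whose products act as a GTPase-activating complex on the RagC and RagD side, each had a log2 difference of -0.23, and Slc38a9, the lysosomal arginine sensor, one of -0.03. These 3 overlapped between groups, and Flcn was highest in WT replicate 2, at 40.6 CPM.

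mTORC1 consists of the kinase mTOR, the substrate-binding subunit raptor, mLST8 and the inhibitors PRAS40 and DEPTOR. Mtor itself (chr4:148448611-148557683, plus strand) stood at 50.6, 51.3 and 55.5 CPM in KO and at 39.6, 52.8 and 48.8 CPM in WT. The groups overlapped, and the log2 difference of 0.16 (95% interval -0.15 to 0.46) did not pass the test (edgeR adjusted p = 0.493). Rptor was at 37.3, 38.8 and 39.1 CPM in KO and at 45.1, 42.3 and 47.7 CPM in WT. The groups did not overlap, but the log2 fold change of -0.23 (SE 0.10) did not pass (edgeR adjusted p = 0.202). Mlst8, which encodes a subunit of both mTOR complexes, was at 8.16, 6.91 and 7.07 CPM in KO and at 5.81, 5.35 and 5.29 CPM in WT. Again the groups did not overlap, and the log2 fold change of 0.43 (SE 0.17) did not pass (edgeR adjusted p = 0.173). Its exons overlap those of Bricd5 on the opposite strand over 997 bases, and without a stated strand setting their reads cannot be told apart. Akt1s1, which encodes PRAS40, had a log2 difference of 0.04 and Deptor one of -0.40 (95% interval -0.83 to 0.04, edgeR adjusted p = 0.229), both with overlapping groups. Deptor was at 110, 148 and 156 CPM in KO and at 146, 194 and 205 CPM in WT.

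mTORC2, the complex that phosphorylates AKT, is set apart by rictor, mSIN1 and protor. Mapkap1, which encodes mSIN1, was at 43.2, 48.3 and 50.0 CPM in KO and at 50.5, 54.3 and 59.7 CPM in WT, groups that only just separate. Its log2 fold change of -0.22 did not pass (edgeR adjusted p = 0.276). Rictor and Prr5 (which encodes protor) overlapped, with log2 differences of -0.13 and 0.23. The TSC complex and Rheb had negative log2 differences in all 4 genes, of which those of Tsc2, Tbc1d7 and Rheb turned positive with library-size scaling. Tsc1 stood at 21.4, 26.9 and 24.4 CPM in KO and at 25.5, 46 and 29.6 CPM in WT. WT replicate 2 was high and WT replicate 1 lay within the KO range, and the log2 difference was -0.48 (95% interval -1.0 to 0.05, edgeR adjusted p = 0.232).

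AMPK is a trimer of a catalytic α, a scaffolding β and a nucleotide-binding γ subunit, each with alternative genes. Prkaa2, which encodes the catalytic α2 (chr4:105029874-105109890, minus strand), stood at 62.4, 53.5 and 62.6 CPM in KO and at 75.3, 92.8 and 89.4 CPM in WT. Every KO library lay below every WT library. At 59.5 ± 5.17 against 85.8 ± 9.26 CPM (SD, n = 3 each), its log2 fold change was -0.53 (SE 0.13, 95% interval -0.83 to -0.23), just short of the threshold (edgeR adjusted p = 0.0512). It passed with RLE factors (edgeR adjusted p = 0.0467), with a filter of 1 CPM in 3 libraries (edgeR adjusted p = 0.0483), without WT replicate 1 (edgeR adjusted p = 0.0382) and with DESeq2 (adjusted p = 0.00544). It was further from the threshold with library size only (log2 fold change -0.32, edgeR adjusted p = 0.176) and without KO replicate 2 (-0.46, edgeR adjusted p = 0.187). Prkaa1, which encodes α1 (chr15:5143861-5181899, plus strand), was at 19.0, 14.5 and 15.7 CPM in KO and at 13.6, 7.96 and 15.5 CPM in WT. The groups overlapped, WT replicate 2 being low, and the log2 difference of 0.40 (SE 0.25) did not pass (edgeR adjusted p = 0.357).

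The β subunits had higher values in KO. Prkab1 (chr5:116013586-116024508, minus strand) was at 36.7, 45.0 and 49.0 CPM in KO and at 35.3, 29.6 and 25.5 CPM in WT. The groups did not overlap, although KO replicate 1 and WT replicate 1 lay within 2 CPM of each other. The log2 fold change of 0.53 (SE 0.16, 95% interval 0.15 to 0.91) did not pass (edgeR adjusted p = 0.0931) except with library size only (0.74, edgeR adjusted p = 0.0331), and over the alternatives the adjusted p reached 0.248. Prkab2 was low in all libraries, at 2.83, 3.43 and 2.11 CPM in KO and at 1.41, 0.872 and 1.87 CPM in WT. It too did not overlap, and its log2 fold change of 1.01 (SE 0.37, 95% interval 0.15 to 1.87) did not pass (edgeR adjusted p = 0.14). Prkag1 and Prkag2, the γ subunit genes, and Stk11, which encodes LKB1, overlapped between groups. Stk11 was at 64.4, 77.6 and 70.8 CPM in KO and at 70.4, 79.8 and 67.1 CPM in WT, a log2 difference of -0.03 (95% interval -0.32 to 0.26).

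**Figure D3:**
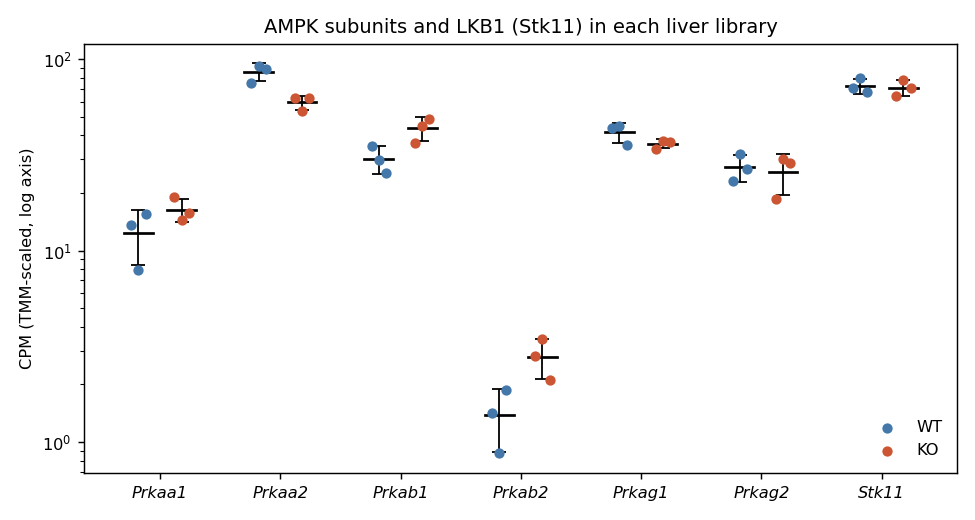
Level in CPM scaled by TMM factors (vertical axis, log scale) of the AMPK subunit genes and Stk11 in each liver library; points are libraries, bars are group means and whiskers 1 SD (n = 3). Prkaa2 is lower in every KO library than in any WT library, Prkab1 and Prkab2 are higher, and the remaining 4 genes overlap.

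Among the effectors, Eif4ebp1, which encodes the translation repressor 4E-BP1 (chr8:27260329-27276674, plus strand), had the highest level per length of all 47 members, at 44.7 CPM per kb in KO and 31.1 CPM per kb in WT. It stood at 103, 103 and 87.8 CPM in KO and at 58.7, 62.2 and 83.9 CPM in WT. The groups did not overlap, with KO replicate 3 and WT replicate 3 close together. The log2 fold change of 0.52 (SE 0.16, 95% interval 0.14 to 0.90) did not pass with edgeR (adjusted p = 0.0954) and just passed with DESeq2 (adjusted p = 0.0494), in a range over the alternatives that reached 0.262. Eif4ebp2, which encodes the related repressor 4E-BP2, overlapped, at 84.0, 95.6 and 96.5 CPM in KO and 97.0, 141 and 93.7 CPM in WT. The S6 kinase genes Rps6kb1 and Rps6kb2 overlapped too, with log2 differences of -0.18 and -0.11, and 1224 bases of the exons of Rps6kb2 overlap Ptprcap on the opposite strand.

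Ddit4 encodes REDD1, a stress-induced inhibitor that acts through the TSC complex, and it had the largest SE of the 46 tested members. It stood at 15.3, 23.8 and 42.3 CPM in KO and at 27.6, 5.46 and 5.93 CPM in WT. WT replicate 1 lay inside the KO range and the other WT libraries lay below it. The log2 difference of 1.06 (SE 0.68, 95% interval -0.54 to 2.65) did not pass (edgeR adjusted p = 0.372). Without WT replicate 1 it was 2.26 (edgeR adjusted p = 0.0372), and without KO replicate 3, WT replicate 2 or WT replicate 3 it was 0.59, 0.69 and 0.71 (edgeR adjusted p of up to 0.69).

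The balance within pairs of alternative subunits was compared as the share of 1 gene in the summed CPM per kb of its pair, in 8 pairs. For 3 libraries against 3 the smallest two-sided exact permutation p is 0.10, which is 0.2 after Benjamini-Hochberg adjustment over the 8 pairs, so none could pass. Sesn2 made up 59.8%, 59.5% and 59.8% of the Sesn1 and Sesn2 level in KO and 47.8%, 37.7% and 48.8% in WT. The means were 59.7% ± 0.195 and 44.8% ± 6.11 (SD, n = 3 each; two-sided exact permutation p = 0.1), without overlap. Prkaa1 made up 34.2%, 31.6% and 30.0% of the catalytic AMPK level in KO and 23.6%, 12.8% and 22.9% in WT. Again the groups did not overlap, at 32.0% ± 2.13 against 19.8% ± 6.06 (SD, n = 3 each; two-sided exact permutation p = 0.1), so α2 remained the major catalytic transcript in every library.

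Eif4ebp1 made up 76.3%, 74.0% and 70.6% of its pair with Eif4ebp2 in KO and 61.4%, 53.8% and 70.2% in WT, where replicate 3 reached almost the KO level (two-sided exact permutation p = 0.1). Rragc made up 94.1% ± 0.707 of its pair with Rragd in KO and 96.2% ± 0.402 in WT (SD, n = 3 each; two-sided exact permutation p = 0.1), without overlap. Rraga, Prkab1, Prkag1 and Rps6kb1 kept similar shares in the means of both groups, with overlapping libraries: Rraga held 99.6% and 99.7% of its pair in KO and WT, Prkab1 96.2% and 97.2%, Prkag1 80.9% and 81.8% and Rps6kb1 55.6% and 56.6% (two-sided exact permutation p between 0.2 and 0.9).

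**Figure D4:**
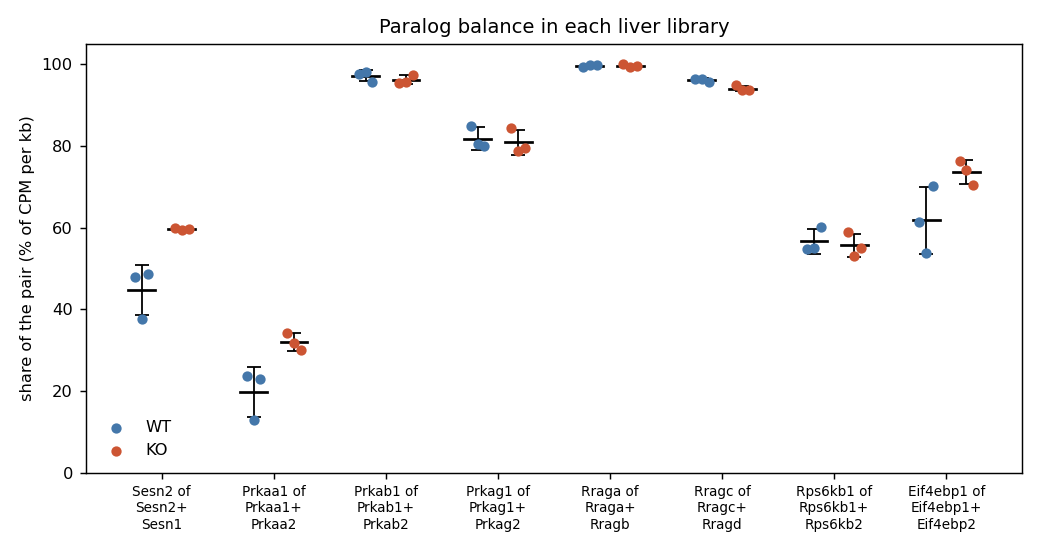
Share of the first gene in the summed CPM per kb of its pair (vertical axis, %) for 8 pairs of alternative subunits in each liver library; points are libraries, bars are group means and whiskers 1 SD (n = 3). Sesn2, Prkaa1 and Eif4ebp1 take larger shares in KO (means 59.7%, 32.0% and 73.6%) than in WT (44.8%, 19.8% and 61.8%), and the groups do not overlap.

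Per length the members ran from 37.9 CPM per kb for Eif4ebp1 to 0.0734 CPM per kb for Rragb, as the mean of the group means. After Eif4ebp1 came Lamtor5 (32.0 CPM per kb), Lamtor2 (31.9 CPM per kb), Lamtor4 (31.7 CPM per kb) and Sec13 (24.1 CPM per kb), so Ragulator subunits took the next 3 places. These kinase genes were lower, with Mtor at 4.92, Prkaa2 at 9.12, Prkaa1 at 3.09 and Rps6kb1 at 2.76 CPM per kb. Slc38a9 (0.548 CPM per kb) and Prkab2 (0.410 CPM per kb) were near the bottom. Lengths are the summed exons of all annotated transcripts, which lowers the value of genes with long alternative ends such as Sesn3.

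Other genes of the pathway, 82 tested of 84 listed, were read from the same fit. Of these 82, 5 passed as higher in KO, beside 435 of all 12945 genes (3.36%), and 6 as lower, beside 463 (3.58%). Their median log2 fold change was -0.04. The lists were chosen with earlier results of these data known, so these counts are not independent of the data. Among 9 transcription factors that induce sestrins, 2 rose: Ddit3, which encodes the stress factor CHOP, and Atf4, the amino acid and endoplasmic reticulum stress factor that acts upstream of it. Ddit3 stood at 49.7, 34 and 27.3 CPM in KO and at 6.02, 3.55 and 4.38 CPM in WT, a 7.93-fold difference (log2 2.99, SE 0.29, edgeR adjusted p = 0.00429). The lowest KO library was several times the highest WT library, and the call held without each library in turn, with an edgeR adjusted p of up to 0.0346. Atf4 stood at 130, 123 and 96.6 CPM in KO and at 65.4, 51.1 and 49.5 CPM in WT, also without overlap (log2 fold change 1.08, SE 0.17, edgeR adjusted p = 0.0151). Its call was lost when KO replicate 2 or WT replicate 3 was left out (edgeR adjusted p of up to 0.0775).

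The remaining 7 factors did not pass. Trp53 and Nfe2l2 had positive log2 fold changes of 0.51 and 0.71 (edgeR adjusted p = 0.0672 and 0.0761), and Foxo1, Foxo3 and Foxo4 negative ones of -0.82, -0.57 and -0.46 (edgeR adjusted p = 0.0861, 0.129 and 0.165), in each case with groups that did not overlap. Cebpb and Hif1a overlapped. Groups without overlap were found in 33.5% of all genes tested. The uncalled factors were named after their values were seen.

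Of 15 tested genes of KICSTOR and the amino acid sensors, 1 rose and 3 fell, beside 3.36% and 3.58% of all genes. Slc3a2, the heavy chain of the leucine transporter, was at 131, 92.3 and 85.8 CPM in KO and at 58.9, 42.7 and 57.0 CPM in WT (log2 fold change 0.96, SE 0.20, edgeR adjusted p = 0.0352). Sar1b, a COPII GTPase and leucine sensor, was at 66.6, 76.6 and 81.6 CPM in KO and at 119, 125 and 109 CPM in WT (log2 fold change -0.65, SE 0.12, edgeR adjusted p = 0.027). Slc36a1, a lysosomal amino acid transporter, and Fnip2, a folliculin partner, fell by 0.54 and 0.55 on the log2 scale (edgeR adjusted p = 0.0288 and 0.0332). All 4 calls ended when any KO replicate or WT replicate 3 was left out, that of Fnip2 also without WT replicate 1 (edgeR adjusted p of up to 0.129), and Sar1b, Slc36a1 and Fnip2 also with library size only (up to 0.148). Among 15 genes of mTOR assembly, the AKT arm and feedback, Sgk3, a kinase related to AKT, rose by 0.78 on the log2 scale (edgeR adjusted p = 0.0227), at 23.3, 20.5 and 25.4 CPM in KO and 13.3, 12.4 and 14.7 CPM in WT. Its call was lost when any KO replicate or WT replicate 3 was left out (edgeR adjusted p of up to 0.0807).

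Of 13 genes of AMPK activation and its substrates, Acacb fell and none rose, beside 3.58% and 3.36% of all genes. Acacb encodes the acetyl-CoA carboxylase at mitochondria, which AMPK inhibits, and it was at 9.34, 9.88 and 12.1 CPM in KO and at 55.5, 29.5 and 75.4 CPM in WT. The highest KO library lay well below the lowest WT library, a 5.12-fold lower level (log2 fold change -2.36, SE 0.33, edgeR adjusted p = 0.0132). Leaving out any KO replicate ended the call (edgeR adjusted p of up to 0.075). Of 17 mTORC1 effectors in translation, autophagy and the lysosome, Lpin1, a phosphatidate phosphatase and coregulator of lipid genes, fell. It was at 22.4, 42.8 and 37.8 CPM in KO and at 62.5, 227 and 163 CPM in WT, with WT replicate 1 the lowest of its group. Its log2 fold change was -2.14 (SE 0.47, edgeR adjusted p = 0.044), and the call was lost when any KO replicate, WT replicate 2 or WT replicate 3 was left out, and with no filter on low counts (edgeR adjusted p of up to 0.139).

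Of 13 mTORC1 output genes in serine, one-carbon, pentose phosphate and lipid control, Srebf1 fell and Aldh1l2 rose. Of all genes tested, 3.58% were called lower and 3.36% higher. Srebf1, which encodes the lipogenic factor SREBP1, was at 373, 297 and 351 CPM in KO and at 814, 762 and 472 CPM in WT (log2 fold change -1.0, SE 0.23, edgeR adjusted p = 0.0465). WT replicate 3 was the nearest to KO. Aldh1l2, a mitochondrial folate enzyme and ATF4 target, was at 3.47, 3.47 and 4.22 CPM in KO and at 0.209, 0.233 and 1.01 CPM in WT (log2 fold change 2.91, SE 0.56, edgeR adjusted p = 0.0281). Without WT replicate 3 its log2 fold change was 4.05. Leaving out any KO replicate ended both calls, and that of Srebf1 ended also without WT replicate 1 or 2, with upper-quartile factors and with library size only (edgeR adjusted p of up to 0.175 for Srebf1 and up to 0.105 for Aldh1l2).

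**Figure D5:**
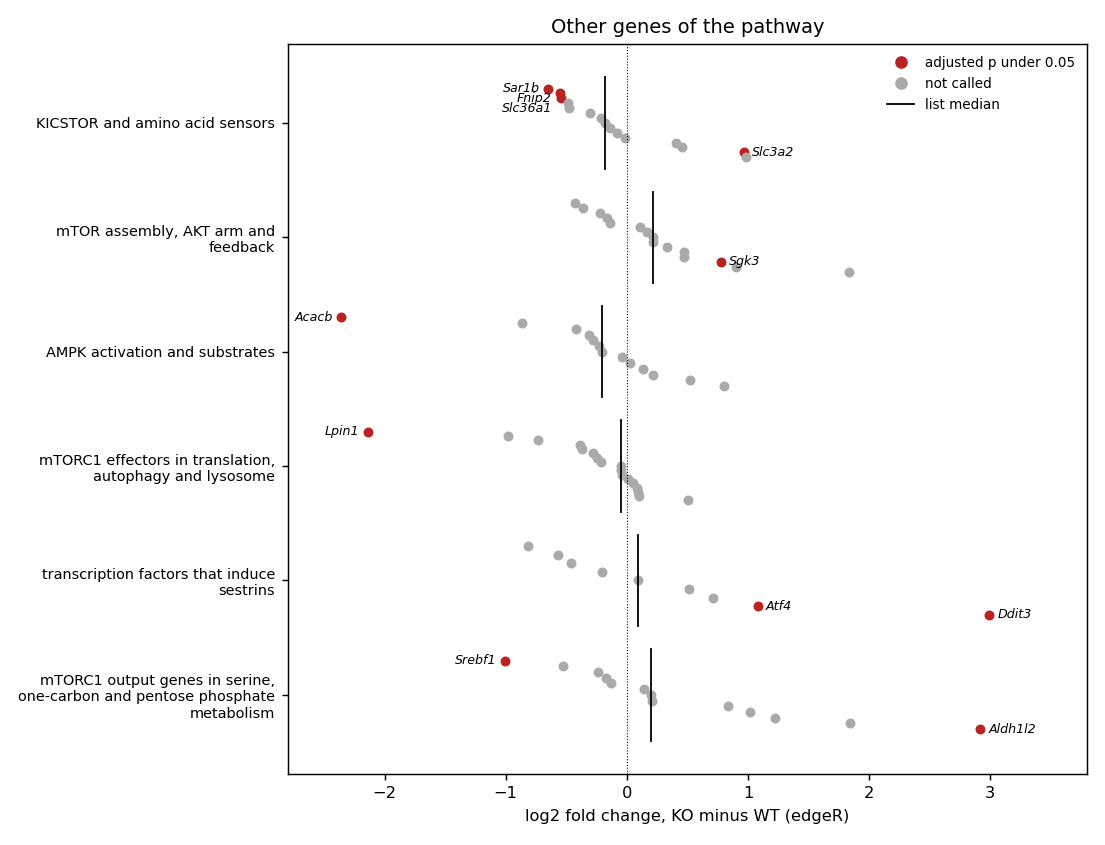
Log2 fold change of KO against WT (horizontal axis) for 82 other genes of the pathway in 6 lists; each point is a gene, red points passed at an edgeR adjusted p under 0.05 and are named, and bars are list medians. The named genes reach from -2.36 for Acacb to 2.99 for Ddit3, and the list medians lie between -0.20 and 0.21.

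Of 7 lists of cell type markers, 2 had summed levels that did not overlap between groups, both higher in KO. The summed level of 8 Kupffer cell and macrophage markers was between 2594 and 3097 CPM in KO and between 1101 and 2579 CPM in WT. The gap was narrow, and 2 of the 8 were called higher, beside 3.36% of all genes. That of 7 stellate cell and fibroblast markers was between 823 and 1054 CPM in KO and between 294 and 462 CPM in WT. Of these 7, 3 were called higher, beside 3.36% of all genes. Single markers did not overlap, with both directions counted together, in 5 of the 8 and 5 of the 7. They also did not overlap in 3 of 6 for hepatocytes, 3 of 6 for sinusoidal endothelium and 2 of 6 for lymphocytes, beside 33.5% of all genes. No cholangiocyte or neutrophil marker was without overlap. The sums of hepatocyte, sinusoidal endothelial, cholangiocyte, T and B lymphocyte and neutrophil markers overlapped between groups, and no listed marker in the table was at 0 in every library. In bulk liver, more or fewer cells of a type and more or less RNA per cell cannot be told apart. The part of these markers in the values of Sesn2, Rragd, the AMPK subunits, Atf4 and Ddit3 was not tested.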

How the data were processed

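The authors deposited whole-number read counts per gene symbol, 1 column per library and not normalized. The submitters' processing notes list edgeR 3.20.8, Subread 1.5.3, featureCounts, STAR 2.5 and the build mm10. The sources used here do not state their roles, the annotation, strandedness or how reads matching several genes were handled. The exons of 12 members overlap those of another gene of the count table on the opposite strand. Groups follow the labelled genotype, and replicate numbers follow accession order.

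All genes were fitted together with edgeR 4.0.16 under R 4.3.3. Low genes were dropped by filterByExpr at a minimum of 10 counts and 15 in total, libraries were scaled by TMM, and the robust, two-sided quasi-likelihood F-test was used, with Benjamini-Hochberg adjustment over 12945 genes and a threshold of 0.05. The script was tested on simulated data. Depth was between 18882220 and 24098512 counts per library, and the common biological coefficient of variation was 0.232. Paralog shares and sestrin sums had exact permutation tests over samples. CPM per kb used GENCODE exon lengths (GRCm38, the mm10 sequence). Promoter windows came from RefSeq. Figures were drawn with matplotlib 3.10.9.

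The members, gene lists and markers were chosen with earlier results of these data known. Every member is named. Of the other pathway genes those called are named, and the uncalled factors were named after their values were seen. Castor1, Castor2 and Bmt2 were matched through older symbols, Kics2 was not matched and Prkag3 was too low to test. Alternatives were RLE, upper-quartile or no factors, no filter or 1 CPM in 3 libraries, DESeq2 1.42.0, limma-voom (limma 3.58.1), no robust dispersion and leaving out each library.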

Additional observations from a re-analysis of the deposited data

How the results depend on the processing

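No paired analysis was possible because the replicate numbers follow accession order and pair no samples. The direction of the calls for Sesn2 and Sesn3 held under all 14 alternatives, and Sesn3 passed in each. With library size only, 2 members passed as higher in KO, and over all genes 707 were higher and 258 lower. DESeq2 called 3 members higher and 4 lower, and 921 genes higher and 1061 lower. RLE factors, and likewise the filter of 1 CPM in 3 libraries, gave 2 members lower. Without any 1 library, between 0 and 2 members were higher and between 1 and 2 lower, while between 48 and 504 genes were higher (lowest without KO replicate 2, highest without WT replicate 1) and between 53 and 475 lower (lowest without KO replicate 2, highest without WT replicate 2). The cause of these shifts was not tested.

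No called member and no called gene of the other pathway lists changed direction, and the remaining genes were not checked for this. Scaling by library size only moved the median of all genes by 0.21 on the log2 scale, and with it 16 uncalled members changed from a negative to a positive log2 fold change: Wdr24 0.031, Wdr59 0.18, Seh1l 0.19, Lamtor1 0.18, Lamtor3 0.13, Lamtor5 0.083, Slc38a9 0.18, Rictor 0.076, Tsc2 0.13, Tbc1d7 0.011, Rheb 0.12, Prkag1 0.018, Prkag2 0.13, Stk11 0.18, Rps6kb1 0.026 and Rps6kb2 0.095. Upper-quartile factors did so for 5: Wdr59 0.016, Seh1l 0.023, Lamtor1 0.016, Slc38a9 0.029 and Stk11 0.024. Without any 1 library, the log2 fold changes of 10 uncalled members crossed 0: Nprl3 from -0.016 to 0.21, Wdr59 from -0.23 to 0.094, Seh1l from -0.13 to 0.037, Sec13 from -0.044 to 0.13, Lamtor1 from -0.14 to 0.0898, Slc38a9 from -0.15 to 0.13, Akt1s1 from -0.019 to 0.17, Prkag2 from -0.21 to 0.12, Stk11 from -0.099 to 0.046 and Rps6kb2 from -0.19 to 0.036. Of the paralog shares, the KO minus WT difference in percentage points crossed 0 for Prkag1 from -2.73 to 0.588, Rraga from -0.27 to 0.0369 and Rps6kb1 from -2.57 to 0.791, and without division by length that of Rragc was -3.02. Members below a few CPM, Sesn3 in KO, Prkab2 and Rragb among them, rest on few counts.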
